A study of Mus musculus with 4 samples.

Results

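The Slc25 genes encode the mitochondrial carrier family, transporters of the inner mitochondrial membrane that move nucleotides, phosphate, amino acids, carboxylates, cofactors and ions between the cytosol and the mitochondrial matrix. The members were all genes of the deposited table whose symbol is Slc25a followed by a number. They came to 42 of the 18714 genes in the table, and no symbol occurred more than 1 time. RNA had been sequenced from mouse embryos at the 2-cell stage in 2 groups. Embryos of the dTAG-13 group were cultured with 500 nM dTAG-13, a small molecule that recruits a ubiquitin ligase to a protein bearing the FKBP12-derived degron tag. Embryos of the DMSO group were cultured with 0.01% DMSO, the vehicle. In both groups the embryos were Nelfb dTAG/dTAG, with the tag on both copies of Nelfb, and of the strain Outbred/ICR. The Nelfb protein belongs to negative elongation factor, a complex that holds RNA polymerase II in a pause soon after the start of transcription. The zygotes came from natural mating of homozygous parents and were kept for 30 h in KSOM, an embryo culture medium. Each library was made with SMART-seq v4 from the polyadenylated RNA of a pool of 3 embryos, and each group had 2 libraries. Embryos without the tag that received dTAG-13 were not analysed here. The labels do not say that pools came from separate parents or days, so a p-value here compares a difference with the spread of these pools alone, and that spread may be technical.

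Each carrier exchanges its substrate across a membrane that is otherwise closed to most metabolites, so the family sets which compounds enter and leave the matrix. The proteins are made in the cytosol and are threaded into the inner membrane by a dedicated import route of small Tim chaperones and the TIM22 complex. Cleavage-stage embryos rely on mitochondria inherited from the oocyte and on pyruvate oxidation, and much of their early RNA is also inherited. An embryo's RNA at the 2-cell stage therefore mixes maternal transcripts that are being degraded with transcripts of the newly active embryonic genome. Values of these bulk libraries are relative to the other transcripts of the same library. A lower value can reflect less of that transcript or more of the others. Fewer cells, or less RNA per cell, cannot be seen in such values.

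Reads assigned to genes numbered 38112685 and 33897568 in dTAG-13 libraries, against 18923479 and 16522506 in DMSO. A scaled read, the unit used here, is a read divided by the authors' size factor of its library, and a count of 0 allows up to 3 reads, which is 1.87 to 4.87 scaled reads depending on the library. Nelfb mRNA was at 63.4 and 35.6 scaled reads in dTAG-13, against 183 and 69.8 in DMSO (log2 fold change -1.23 ± 0.86, adjusted p = 0.343). The tag acts on the protein, so this level does not check its loss. Of 24 transient 2-cell markers, 22 were measured and none of these was at 0 in any library. Markers of the labelled stage were therefore present in both groups, but 15 were lower and 1 was higher in dTAG-13 (median log2 fold change -2.0). Of 61 oocyte transcripts, 43 were lower and 0 higher by limma, with a median log2 fold change of -2.55. By unadjusted p 2 were higher and 47 lower, and 0 were higher by edgeR and 2 by DESeq2. For both lists, the shares of all genes tested were 9.79% lower and 8.94% higher by limma. Summed markers of other cells were at 538 and 536 scaled reads in dTAG-13 and 1096 and 364 in DMSO for cumulus and granulosa cells, with 5 of 14 markers measured. Blood markers summed to 202.2 and 201.5 in dTAG-13 and 1062 and 1066 in DMSO, mostly Hba-a1, with 3 of 7 measured. Oviduct markers summed to 8091 and 7306 in dTAG-13 and 4993 and 4021 in DMSO, mostly Epcam, with 4 of 6 measured. Sperm markers summed to 29.9 and 27.2 in dTAG-13 and 160 and 97.4 in DMSO, with 4 of 8 measured. Of the defining markers, Star of steroid-making cells and Cdhr4 of ciliated cells were at 0 in both DMSO libraries, and Ptx3 of cumulus cells was at 0 in both dTAG-13 libraries. The part of these cells in the values given here was not tested.

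Of the 42 members, 38 averaged 10 scaled reads or more and were tested. The test compared log2(scaled reads + 1) with limma, and p-values were adjusted by the Benjamini-Hochberg method over all 15978 genes tested. At an adjusted p under 0.05, 6 members were higher in dTAG-13, 2 were lower and 30 did not pass. That is 21.1% of the tested members, against 18.7% of all genes tested. The higher members made up 15.8%, against 8.94% of all genes, and the lower members made up 5.26%, against 9.79%. The 6 that rose were Slc25a44, Slc25a38, Slc25a20, Slc25a25, Slc25a3 and Slc25a36, and the 2 that fell were Slc25a15 and Slc25a5. At an unadjusted p under 0.05 there were 8 higher members (21.1%, against 18.6% of all genes) and 3 lower (7.89%, against 20.6%). The libraries of the groups did not overlap for 55.3% of the tested members, against 66.7% of all genes. In 13 of these the dTAG-13 pools lay above (34.2% of the tested members, against 32.2% of all genes) and in 8 below (21.1%, against 34.5%).

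The scaling of the libraries bears on the split between higher and lower members. With libraries scaled to equal median levels of oocyte transcripts, 20 members were higher and 0 lower (0 lower also at an unadjusted p under 0.05), against 6 and 2 with the authors' scaling. Of all genes, 40.1% were then higher and 2.03% lower. Over all genes, that scaling put the median log2 fold change at 2.07, against -0.10 with the authors' scaling. The median of the 38 tested members was 0.36 with the authors' scaling, with quartiles at -0.95 and 2.21, and the quartiles of all genes were -1.83 and 1.44. The members' median lay 0.46 above that of all genes with the authors' scaling and 0.57 above it with oocyte scaling. The 6 members that rose kept a positive fold change under each scaling tried, and the 2 that fell had positive ones under oocyte scaling.

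**Figure D1:**
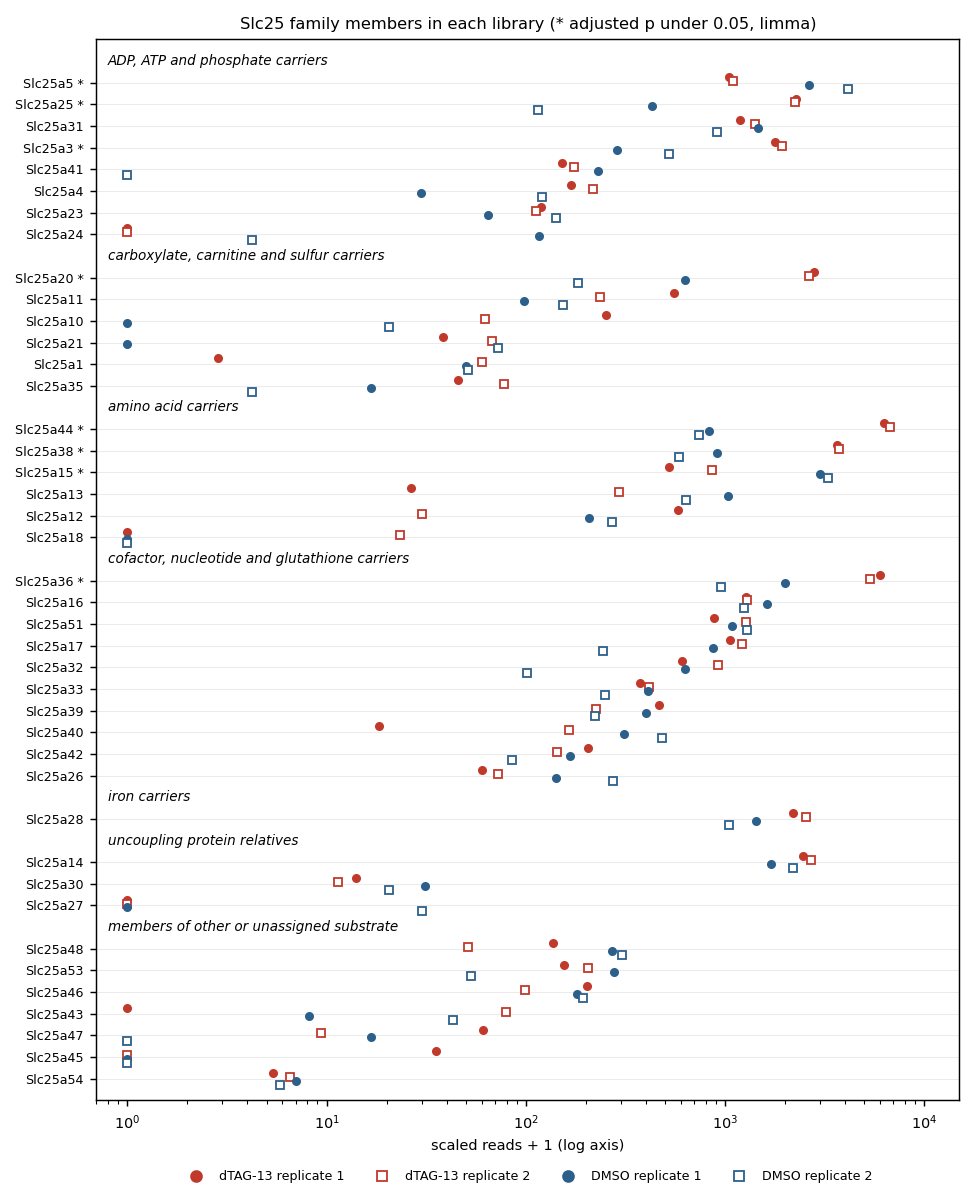
Scaled reads + 1 on a log axis for the Slc25 members, with 1 left out, in the 2 dTAG-13 libraries (red) and the 2 DMSO libraries (blue), grouped by role, with circles for replicate 1 and squares for replicate 2. Members with an asterisk had an adjusted p under 0.05. Slc25a44 stands at 6274 and 6689 scaled reads in dTAG-13, against 831 and 740.2 in DMSO.

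All 8 members past the threshold were among the more abundant ones, the lowest averaging 1127 scaled reads. Of 13 tested members with a mean of at least 1000, 8 passed, or 61.5%, against 47.0% of the 3669 genes at that level. The limit of 1000 was chosen after the values were seen. Of the 25 tested members under that limit, 0 passed by limma and by edgeR, where 18.7% of all genes at any level passed by limma. The 0 by limma follows from a limit placed below the lowest member that passed. By limma 2 of the 25 had an unadjusted p under 0.05, Slc25a10 (higher) and Slc25a13 (lower). DESeq2 on the recovered reads called 7 higher and 4 lower, against 15.1% and 16.7% of all genes. Its additional calls were Slc25a28 (higher, adjusted p = 0.0479), Slc25a24 (lower, adjusted p = 0.0134) and Slc25a13 (lower, adjusted p = 0.0462), of which Slc25a24 and Slc25a13 lie under the limit. By edgeR's quasi-likelihood test, 3 members were higher and 2 lower, against 6.42% and 7.17% of all genes. The gap between the 2 pools of a group had a median of 0.39 log2 units over members in dTAG-13 and 0.86 in DMSO, against 0.57 and 0.82 over all genes.

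**Figure D2:**
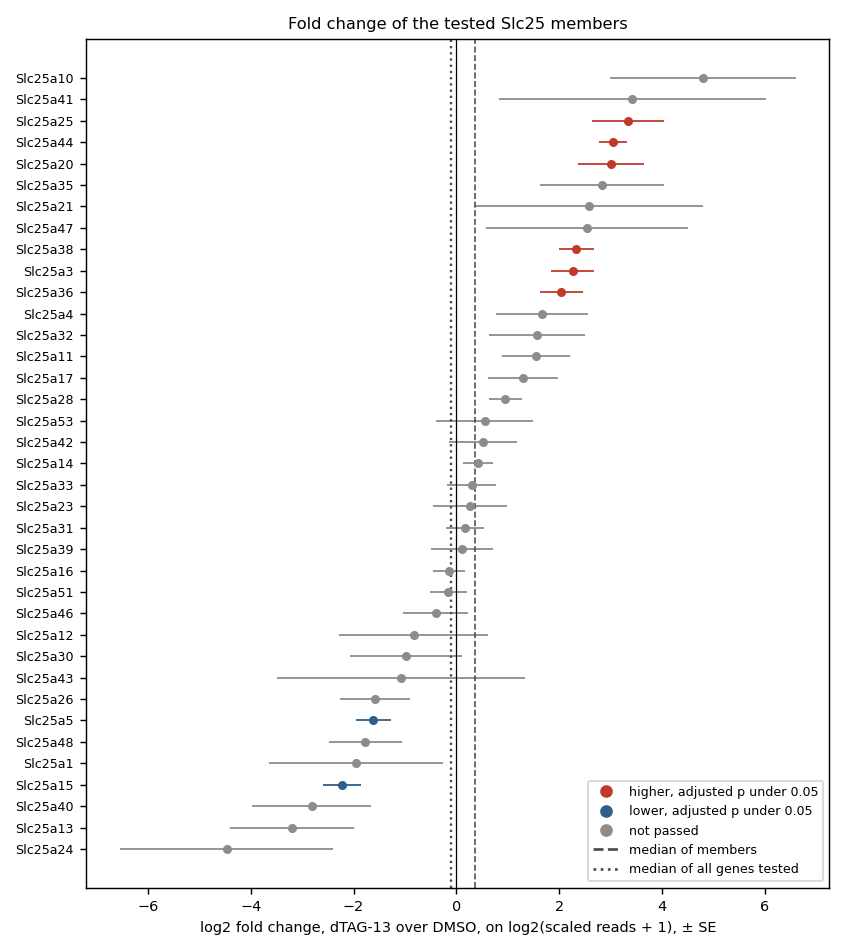
Log2 fold change, dTAG-13 over DMSO, of the tested members, with 1 left out, and the standard error of the limma fit as bars. Red points are the 6 higher members, blue the 2 lower members and grey those that did not pass, and the dashed and dotted lines mark the medians of members (0.36) and of all genes (-0.10). The widest bars belong to members with a library at or near 0, such as Slc25a41, and both blue points turn positive under oocyte scaling (0.67 for Slc25a5 and 0.06 for Slc25a15).

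The amino acid carriers included the 2 members of highest level per kilobase of exon in dTAG-13, Slc25a44 and Slc25a38. The exon length of a gene was that of the merged exons of all its annotated transcripts. A level per kilobase is thus too low where only shorter forms are present. Of 9 carriers listed, 6 were measured and 5 tested, of which 2 rose, 1 fell and 2 did not pass. The shares of all genes tested were 8.94% higher and 9.79% lower. The list's median log2 fold change was -0.83 by limma, 0.42 by edgeR and 0.37 by DESeq2. By limma it was -1.47 without dTAG-13 replicate 1 and 1.304 without dTAG-13 replicate 2. Slc25a44, which carries branched-chain amino acids into the matrix, lies on the minus strand of chr3:88410498-88425139 (GRCm38). It had 6274 and 6689 scaled reads in dTAG-13, against 831 and 740.2 in DMSO. The pools of each group lay close together and far from the other group. The means were 6482 ± 293 in dTAG-13 and 786 ± 64.2 in DMSO (SD, n = 2 each), an 8.25-fold difference (log2 fold change 3.04 ± 0.27, adjusted p = 0.0219, limma). It was the 1 member that stayed past the threshold without either DMSO library (adjusted p = 0.0341 and 0.0406), while without either dTAG-13 library it did not pass (0.208 and 0.189).

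Slc25a38, on the plus strand of chr9:120110374-120124504, brings glycine into the matrix for the first step of heme synthesis. It had 3634 and 3715 scaled reads in dTAG-13, against 905 and 586 in DMSO. The dTAG-13 pools were nearly equal, and both lay above the DMSO pools. The means of 3674 ± 57.3 in dTAG-13 and 746 ± 226 in DMSO differed 4.93-fold (log2 fold change 2.33 ± 0.34, adjusted p = 0.0233). Slc25a15, the ornithine carrier that links the cytosolic and matrix steps of the urea cycle, lies on the minus strand of chr8:22375551-22398597. It had 520.0 and 861 scaled reads in dTAG-13, against 2978 and 3303 in DMSO. Here the DMSO pools were the closer pair and the 2 groups were again well apart. The means of 690.3 ± 241 in dTAG-13 and 3141 ± 230.0 in DMSO gave a log2 fold change of -2.23 ± 0.37 (adjusted p = 0.0269). With oocyte scaling the fold change of Slc25a15 was 0.06 (adjusted p = 0.917).

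The aspartate/glutamate carriers Slc25a12 (aralar) and Slc25a13 (citrin) serve the malate-aspartate shuttle, and neither passed. Slc25a13 had 25.5 and 292 scaled reads in dTAG-13, against 1035 and 635 in DMSO (log2 fold change -3.20 ± 1.20, adjusted p = 0.118). Slc25a12 had 582 and 29.3 in dTAG-13, against 205 and 269 in DMSO. The dTAG-13 pools thus held the pair in opposite proportions. Per kilobase of exon, Slc25a12 made up 92.2% and 4.93% of the pair in dTAG-13, and 9.31% and 18% in DMSO. The summed level of the pair was 86.0 and 80.9 scaled reads per kilobase in dTAG-13, against 300.5 and 204 in DMSO. The glutamate carrier Slc25a18 was not tested: it had 32 reads in dTAG-13 replicate 2 and 0 in the other libraries.

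Among the carriers of ADP, ATP and phosphate, all 8 listed were tested. Of these, 2 rose, 1 fell and 5 did not pass, against 8.94% of all genes higher and 9.79% lower. The median log2 fold change was 0.97 by limma, 0.35 by edgeR and 0.33 by DESeq2, and by limma 0.58 without DMSO replicate 1 and 0.33 without DMSO replicate 2. Slc25a3, the phosphate carrier that feeds ATP synthase and also carries copper, lies on the minus strand of chr10:91116574-91124059. It had 1773 and 1929 scaled reads in dTAG-13, against 286 and 519 in DMSO. Both dTAG-13 pools exceeded both DMSO pools. The means of 1851 ± 110.0 in dTAG-13 and 403 ± 165 in DMSO differed 4.60-fold (log2 fold change 2.26 ± 0.42, adjusted p = 0.0316). Slc25a25, a calcium-regulated carrier that exchanges ATP-Mg for phosphate, lies on the minus strand of chr2:32414487-32451445. It had 2272 and 2230.2 scaled reads in dTAG-13, against 431 and 114 in DMSO. The dTAG-13 pools were almost the same, and the DMSO pools were lower and further apart. The means of 2251 ± 29.7 in dTAG-13 and 272 ± 224 in DMSO differed 8.27-fold (log2 fold change 3.34 ± 0.69, adjusted p = 0.0372). Each DMSO pool moved the log2 fold change of Slc25a25, to 4.30 with replicate 1 left out and 2.38 with replicate 2 left out. By edgeR Slc25a25 did not pass (log2 fold change 3.04, adjusted p = 0.0525). Of its exon length, 4.82% is shared with the opposite-strand gene Naif1, which had 173 and 62.8 scaled reads in dTAG-13 and 2.40 and 27.6 in DMSO, and the unstranded libraries cannot tell the pair apart there.

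Slc25a5, the ADP/ATP carrier ANT2 that exports ATP from the matrix in dividing cells, lies on the plus strand of chrX:36795651-36798807. It had 1046 and 1101 scaled reads in dTAG-13, against 2624 and 4156 in DMSO. The dTAG-13 pools were close, and both DMSO pools were higher and apart from each other. The means of 1074 ± 38.8 in dTAG-13 and 3389.7 ± 1083 in DMSO gave a log2 fold change of -1.62 ± 0.34 (adjusted p = 0.0384), and oocyte scaling turned the sign (0.67, adjusted p = 0.134). Its level is uncertain, since 33.8% of its 50-base exon windows also occur in 9 other genes, above all the processed pseudogene Gm5560. Gm5560 itself was listed with 4.35 and 2.79 scaled reads in dTAG-13 and 7.20 and 21.1 in DMSO.

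The other ADP/ATP carriers did not pass. Slc25a31 (ANT4), an ADP/ATP carrier of the germ line, had 1181 and 1419 scaled reads in dTAG-13, against 1458 and 911 in DMSO. Slc25a4 (ANT1), the form of heart and muscle, had 167 and 216 in dTAG-13, against 28.8 and 120.1 in DMSO. Per kilobase, Slc25a5 made up 50.4% and 46.9% of the trio in dTAG-13, against 69.6% and 84.1% in DMSO. Slc25a31 made up 44.0% and 46.7% in dTAG-13, against 29.9% and 14.2% in DMSO. The trio summed to 1262 and 1428 scaled reads per kilobase in dTAG-13 and to 2291 and 3004 in DMSO. Slc25a5 and Slc25a31 were thus at like levels per kilobase in dTAG-13, while Slc25a5 led in both DMSO pools. These shares are uncertain, since 33.8% of the Slc25a5 windows occur in other genes, against 0% for Slc25a31.

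The relatives of Slc25a25 were alike in the dTAG-13 pools and varied widely between the DMSO pools. Within the set of 4 ATP-Mg/phosphate carriers, Slc25a25 made up 68.0% and 65.3% per kilobase in dTAG-13, against 20.2% and 34.4% in DMSO. Slc25a24, the form known from many dividing cells, had 0 reads in both dTAG-13 pools, against 96 and 2 reads in DMSO. Its DMSO mean was at least 29.9-fold higher than the dTAG-13 floor, taken as 3 reads in each library, but the pools of DMSO differed and it did not pass (adjusted p = 0.178). Slc25a41 had 151 and 173 scaled reads in dTAG-13, against 228 and 0 in DMSO. Slc25a23 had 119 and 111 in dTAG-13, against 63.6 and 141 in DMSO.

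**Figure D3:**
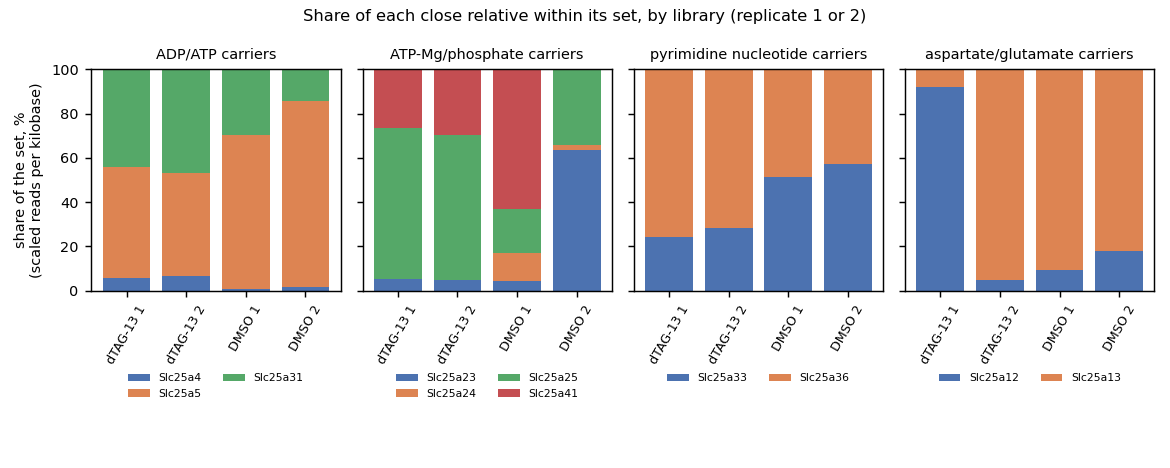
Share of each close relative within its set, in percent of the summed scaled reads per kilobase of exon, for each of the 4 libraries with dTAG-13 on the left of each panel. Slc25a36 makes up 76.0% and 71.6% of the pyrimidine nucleotide carriers in dTAG-13, against 48.8% and 42.8% in DMSO, while the aspartate/glutamate panel shows the 2 dTAG-13 pools apart from each other.

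The carriers of carboxylates and carnitine had summed levels of 3687 and 3142 scaled reads in dTAG-13, against 791 and 479 in DMSO. Of 7 listed, 6 were measured and tested, of which 1 rose, 0 fell and 5 did not pass by limma. The shares of all genes tested were 8.94% higher and 9.79% lower. By unadjusted p 2 of the list were higher and 0 lower, and 0 were lower also by edgeR and DESeq2. The list's median log2 fold change was 2.71 by limma, 2.18 by edgeR and 2.17 by DESeq2. By limma it was 1.70 with 10 in place of 1 added before the logarithm, and 1.92 to 2.98 with a library left out. Slc25a20, which exchanges acylcarnitine for carnitine so that fatty acids can be oxidised, lies on the plus strand of chr9:108662088-108684641. It had 2797 and 2644 scaled reads in dTAG-13, against 629 and 182 in DMSO. Both dTAG-13 pools were far above both DMSO pools, which differed from each other. The means of 2721 ± 108 in dTAG-13 and 406 ± 316 in DMSO differed 6.71-fold (log2 fold change 3.003 ± 0.65, adjusted p = 0.0397). The log2 fold change of Slc25a20 came to 3.90 with DMSO replicate 1 left out and to 2.11 with DMSO replicate 2 left out. By edgeR Slc25a20 did not pass (log2 fold change 2.74, adjusted p = 0.0558). Slc25a20 thus supplied most of the list's reads in dTAG-13. The oxoglutarate carrier Slc25a11 had 555 and 234 in dTAG-13, against 97.3 and 153 in DMSO (adjusted p = 0.151). Its exons overlap by 8.92% the opposite-strand gene Rnf167, at 3059.8 and 2977 in dTAG-13, against 1179 and 411 in DMSO. The dicarboxylate carrier Slc25a10 had 251 and 61.4 in dTAG-13, against 0 and 19.5 in DMSO (adjusted p = 0.119). Slc25a35 had 44.8 and 76.7 in dTAG-13, against 15.6 and 3.25 in DMSO. The citrate carrier Slc25a1 and the oxoadipate carrier Slc25a21 had at most 71.4 scaled reads in any library, and their groups overlapped.

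Among the carriers of cofactors, nucleotides and glutathione, all 11 listed were tested. By limma 1 rose, 0 fell and 10 did not pass, against 8.94% of all genes higher and 9.79% lower. By unadjusted p 1 was higher and 0 lower, and 0 were lower also by edgeR and DESeq2. The list had a median log2 fold change of 0.26. The median moved to 0.65 with DMSO replicate 1 left out and to -0.06 with DMSO replicate 2 left out. Slc25a36, which carries pyrimidine nucleotides needed for mitochondrial DNA and RNA, lies on the minus strand of chr9:97074961-97111157. It had 6010.1 and 5336 scaled reads in dTAG-13, against 1987 and 951 in DMSO. Both dTAG-13 pools were above both DMSO pools. The means of 5673 ± 477 in dTAG-13 and 1469 ± 733 in DMSO differed 3.86-fold (log2 fold change 2.04 ± 0.42, adjusted p = 0.0370). With quantile normalization the log2 fold change was 1.85 (adjusted p = 0.0508) and with edgeR it was 1.96 (adjusted p = 0.0506), so that neither passed. Its relative Slc25a33 had 374 and 416 in dTAG-13, against 411 and 249.98 in DMSO (adjusted p = 0.668). Slc25a36 therefore made up more of the pair in both dTAG-13 pools than in either DMSO pool.

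The other cofactor carriers did not pass. Slc25a16, a carrier linked to coenzyme A, had 1271 and 1284 scaled reads in dTAG-13, against 1618 and 1242 in DMSO (log2 fold change -0.15 ± 0.31). Slc25a51, which brings NAD into the matrix, had 881 and 1279 in dTAG-13, against 1088 and 1286 in DMSO (log2 fold change -0.16 ± 0.35). Slc25a17, a peroxisomal carrier of coenzyme A and nucleotide cofactors, had 1057 and 1214 in dTAG-13, against 872 and 243 in DMSO (adjusted p = 0.218). The glutathione carrier Slc25a39 had 464 and 225 in dTAG-13, against 402 and 222 in DMSO. Its relative Slc25a40 had 17.4 and 164 in dTAG-13, against 311 and 479 in DMSO (adjusted p = 0.142). The S-adenosylmethionine carrier Slc25a26 had 59.1 and 71.1 in dTAG-13, against 140.5 and 274 in DMSO (adjusted p = 0.155). The groups did not overlap for Slc25a40 and Slc25a26, with the dTAG-13 pools below, and neither passed. The folate carrier Slc25a32 and the coenzyme A carrier Slc25a42 had overlapping groups.

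Of the 8 tested members of the remaining roles, 0 passed by limma with the authors' scaling, where 18.7% of all genes passed, and 0 by edgeR. In this set 1 member, Slc25a28, had an unadjusted p under 0.05 by limma and passed by DESeq2. With oocyte scaling limma called Slc25a28 (log2 fold change 3.24, adjusted p = 0.00812) and Slc25a14 (2.71, adjusted p = 0.00634) higher. Of all genes, 40.1% were higher with that scaling. For iron, Slc25a28 (mitoferrin 2, on the minus strand of chr19:43663801-43674881) was measured and had 2189 and 2539.9 scaled reads in dTAG-13, against 1425 and 1041 in DMSO. Both dTAG-13 pools were above both DMSO pools (log2 fold change 0.95 ± 0.32, adjusted p = 0.0928 by limma and 0.0479 by DESeq2). Among the relatives of uncoupling proteins, Slc25a14, on the plus strand of chrX:48623413-48662294, had 2446 and 2708 in dTAG-13, against 1689.6 and 2183 in DMSO (log2 fold change 0.42 ± 0.29, adjusted p = 0.333). It supplied at least 99.1% of the summed level per kilobase of itself and its relative Slc25a30 in each library. Slc25a30 had 13.1 and 10.5 scaled reads in dTAG-13, against 30.0 and 19.5 in DMSO. Of the members with other or unassigned substrates, Slc25a48 had the highest mean over the 4 libraries, though not in dTAG-13 alone, and lies on the plus strand of chr13:56438355-56474239. Slc25a48 had 136 and 50.2 in dTAG-13, against 269 and 304 in DMSO (log2 fold change -1.77 ± 0.71, adjusted p = 0.134). Slc25a46, an outer membrane protein that acts in mitochondrial fission, had 201 and 98.3 in dTAG-13, against 180.1 and 193 in DMSO. Slc25a43, Slc25a47 and Slc25a53 had at most 277 scaled reads in any library, and their groups overlapped.

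Besides Slc25a18, 3 members fell under the filter on low values. Slc25a45 had 55 reads in dTAG-13 replicate 1 and 0 in the other libraries. Slc25a27, a relative of uncoupling proteins, had 18 reads in DMSO replicate 2 and 0 elsewhere. Slc25a54 lay between 4.35 and 6.0 scaled reads in all 4 libraries.

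To show the start regions of members that moved in each direction, the 250 bases before the transcript start nearest to an annotated principal start are given for 2 members that rose with the authors' scaling and for the 2 that fell with it. The sequences are RefSeq's for GRCm38.p6, written 5′ to 3′ on the strand of the gene. Capitals mark matches on either strand to 6 promoter motifs that were searched: GCGCANGCG of NRF1, ACTTCCG of ETS factors such as GABPA, GGGCGG of Sp factors, CCAAT of NF-Y, the TATA box TATAAA and the YY1 motif AANATGGCG. No 2 matches overlap in these windows.
Slc25a3, chr10:91123968-91124217, minus strand: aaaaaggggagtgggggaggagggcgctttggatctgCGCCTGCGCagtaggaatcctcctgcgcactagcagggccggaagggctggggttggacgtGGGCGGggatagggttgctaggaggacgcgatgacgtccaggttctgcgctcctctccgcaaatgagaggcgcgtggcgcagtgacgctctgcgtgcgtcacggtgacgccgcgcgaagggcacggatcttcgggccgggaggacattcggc
Slc25a38, chr9:120110132-120110381, plus strand: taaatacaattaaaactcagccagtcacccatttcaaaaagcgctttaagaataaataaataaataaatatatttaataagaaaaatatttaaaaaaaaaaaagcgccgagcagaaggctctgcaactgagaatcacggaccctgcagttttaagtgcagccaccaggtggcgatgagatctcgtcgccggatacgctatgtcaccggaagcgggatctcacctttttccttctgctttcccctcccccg
Slc25a15, chr8:22398622-22398871, minus strand: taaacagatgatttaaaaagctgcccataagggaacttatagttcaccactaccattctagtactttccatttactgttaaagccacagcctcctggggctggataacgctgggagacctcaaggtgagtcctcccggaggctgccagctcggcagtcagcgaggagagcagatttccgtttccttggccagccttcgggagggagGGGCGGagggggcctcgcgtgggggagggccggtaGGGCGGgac
Slc25a5, chrX:36795347-36795596, plus strand: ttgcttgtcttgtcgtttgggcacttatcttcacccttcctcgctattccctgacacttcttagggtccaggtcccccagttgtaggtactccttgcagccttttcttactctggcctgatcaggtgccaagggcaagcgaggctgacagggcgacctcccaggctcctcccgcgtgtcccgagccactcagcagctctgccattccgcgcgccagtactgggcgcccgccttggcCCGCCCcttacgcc
Slc25a3 holds 1 match for NRF1 and 1 for Sp factors, Slc25a15 holds 2 for Sp factors and Slc25a5 holds 1. A further window of Slc25a15, not shown, holds 5 for Sp factors. The window of Slc25a38 holds none of the 6, which says only that these letters do not occur in it. Of the other higher members, Slc25a20 holds 1 match for ETS factors and 3 for Sp factors, Slc25a25 holds 1 for Sp factors and 3 for CCAAT in the nearest of its 3 windows (0 to 1 and 1 to 2 in the others), and Slc25a36 holds 1 of each. Over the 33 members with a window, counting 1 window each, GGGCGG occurred in 66.7%, against 32.7% of all 32851 windows in RefSeq's table. CCAAT occurred in 42.4%, against 33.8% of all windows. The NRF1 motif occurred in 2 members, Slc25a3 and Slc25a31, against 5.16% of all windows, and the ETS motif in 2, Slc25a16 and Slc25a20, against 4.92%. TATAAA occurred in 2 members, against 12.4% of all windows, and the YY1 motif in 0, against 1.12%. All windows include those of genes that do not code for proteins, and a match is not a bound site.

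Per kilobase of exon, the family summed to 9928 and 10485 scaled reads in dTAG-13, against 7172 and 6958 in DMSO, with the authors' scaling. The 6 higher members made up 49.2% and 47.3% of that sum in dTAG-13, against 14.0% and 9.56% in DMSO. The 2 lower members made up 7.33% and 7.84% in dTAG-13, against 29.6% and 44.7% in DMSO. These shares describe members already chosen by the test and add no evidence to it. Slc25a44 led the family in dTAG-13, at 1754 and 1869 scaled reads per kilobase, against 232 and 207 in DMSO. Its DMSO range overlapped those of Slc25a38, Slc25a13, Slc25a51, Slc25a17, Slc25a33 and, narrowly, Slc25a36. Slc25a38 had rank 2 in dTAG-13, and Slc25a14, which did not pass, had rank 3 there and rank 2 in DMSO. Ranks and shares per kilobase rest on the merged exon lengths, such as 5550 bases for Slc25a3 with 8 annotated transcripts. Slc25a5 had 636 and 669 scaled reads per kilobase in dTAG-13, where it had rank 4, against 1594 and 2525 in DMSO, where it led. In dTAG-13 the range of Slc25a31 (555 and 667) overlapped those of Slc25a5 (636 and 669) and Slc25a28 (584 and 677). It also overlapped those of Slc25a36 (626 and 556) and Slc25a20 (577 and 546). The order of these members is therefore not resolved, except that Slc25a5 lay above Slc25a36 and Slc25a20, and Slc25a28 above Slc25a20. In DMSO, Slc25a15 (529 and 587) and Slc25a31 (685 and 428) likewise overlapped. Without division by length the family summed to 37790.4 and 39266 scaled reads in dTAG-13, against 23878 and 21169 in DMSO.

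**Figure D4:**
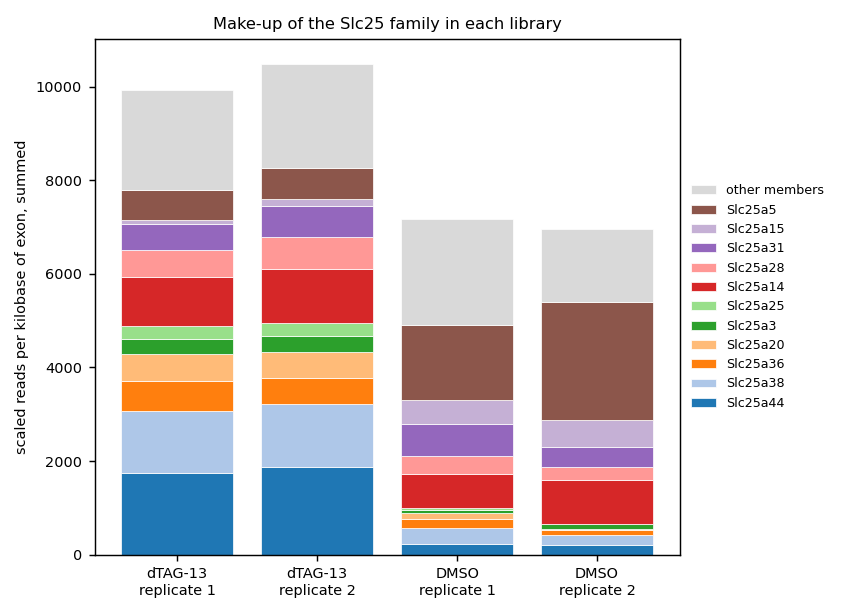
Scaled reads per kilobase of exon, stacked by member and summed over the family, in the 2 dTAG-13 libraries on the left and the 2 DMSO libraries on the right. Slc25a44 takes up 17.7% and 17.8% of the bars in dTAG-13, against 3.24% and 2.97% in DMSO, and Slc25a5 takes up 6.40% and 6.38% in dTAG-13, against 22.2% and 36.3% in DMSO.

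Genes that work with the carriers were read from the same fit. The carrier import route, which brings these proteins through the outer membrane and the intermembrane space, had 15 tested genes, of which 6 rose, 2 fell and 7 did not pass (median log2 fold change 1.74), against 8.94% of all genes higher and 9.79% lower. Tomm22, a receptor of the outer membrane pore, had 17517 and 15721 scaled reads in dTAG-13, against 4536 and 3519 in DMSO (log2 fold change 2.05 ± 0.24, adjusted p = 0.0219). Tomm5, a small subunit of the same pore, had 5409.8 and 5844 in dTAG-13, against 1038 and 916 in DMSO (log2 fold change 2.53 ± 0.27, adjusted p = 0.0219). Timm8a1, an intermembrane-space chaperone, had 1066 and 1575 in dTAG-13, against 104 and 154 in DMSO (log2 fold change 3.34 ± 0.47, adjusted p = 0.0231). The 2 that fell were Agk, a TIM22 subunit with a log2 fold change of -3.45, and Timm8b at -1.96, and Timm8b turned to 0.32 with oocyte scaling. The route's tested genes thus moved in both directions. With oocyte scaling 10 were higher and 0 lower, where 40.1% of all genes were higher and 2.03% lower. With any 1 library left out, all or most of the route's calls made with the authors' scaling were lost. Its median log2 fold change was then 1.19 to 1.81.

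Other transporters of mitochondria had 17 tested genes, of which 3 rose and 3 fell, against 8.94% and 9.79% of all genes (median log2 fold change -0.08, and -0.55 by edgeR, -0.66 by DESeq2 and 0.02 without DMSO replicate 2). Vdac2, a channel of the outer membrane, had 1088 and 1037 scaled reads in dTAG-13, against 4838 and 6928 in DMSO (log2 fold change -2.45 ± 0.30, adjusted p = 0.0219). Mcu, the calcium uniporter, had 1154 and 1081 in dTAG-13, against 4402 and 6128 in DMSO (log2 fold change -2.22 ± 0.30, adjusted p = 0.0225). With oocyte scaling these fold changes were -0.16 for Vdac2 and 0.07 for Mcu, and 7 of the list were higher and 1 lower, against the same shares of all genes. With any 1 library left out, no gene of the list kept its call as higher. The list's median log2 fold change was then -0.18 to 0.02. Abcb8, an ABC transporter of the inner membrane, had 0 reads in both dTAG-13 libraries, against 113 and 68.2 scaled reads in DMSO, and its DMSO mean was at least 45.7-fold higher than the dTAG-13 floor of 3 reads a library. Of the members of the carrier family under other symbols, Ucp1, Ucp2, Mtch1 and Mtch2 were tested, and by limma 0 were higher or lower (1 higher and 0 lower by unadjusted p, 0 by edgeR and 1 higher by DESeq2). Mtch2, which inserts proteins into the outer membrane, had 1868 and 1394 in dTAG-13, against 696 and 326 in DMSO (log2 fold change 1.76 ± 0.49, adjusted p = 0.0637).

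Of 17 tested regulators of mitochondrial biogenesis, 5 rose and 0 fell by limma (1 lower at an unadjusted p under 0.05, 0 by edgeR and 1 by DESeq2), with a median log2 fold change of 0.68, against 8.94% of all genes higher and 9.79% lower. Gabpa, the DNA-binding subunit of an ETS factor that acts on many mitochondrial genes, had 67119 and 63346 scaled reads in dTAG-13, against 21993 and 10054 in DMSO (log2 fold change 2.13 ± 0.40, adjusted p = 0.0316). Gabpb1, its partner subunit, had 25693 and 20153 in dTAG-13, against 6329.5 and 3255 in DMSO (log2 fold change 2.33 ± 0.38, adjusted p = 0.0264). Nrf1, whose motif was searched in the promoters, had 3406 and 5068 in dTAG-13, against 1293 and 722 in DMSO (log2 fold change 2.10 ± 0.42, adjusted p = 0.0345). With oocyte scaling 9 regulators were higher and 0 lower, against 40.1% and 2.03% of all genes. With any 1 library left out, all or most of the 5 calls made with the authors' scaling were lost. The list's median log2 fold change was then 0.57 to 0.76. For the 13 mRNAs encoded in mitochondrial DNA the median log2 fold change was -0.98 (-0.58 without DMSO replicate 2). By limma 0 were higher and 0 lower, against 8.94% and 9.79% of all genes. By unadjusted p 0 were higher and 6 lower, against 18.6% and 20.6% of all genes. By edgeR 0 and 0 passed, and by DESeq2 0 and 6, against 15.1% and 16.7% of all genes by DESeq2. With oocyte scaling their median was 1.31, with 8 higher and 0 lower, against 40.1% and 2.03% of all genes. With libraries scaled to equal median levels of these mRNAs, 0 Slc25 members and 0 of all genes passed by limma, and 10 members were higher and 0 lower by unadjusted p.

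The authors' deposited table lists 39 of the members and gives an adjusted p under 0.05 to 6 higher and 2 lower ones, against 7.56% higher and 8.47% lower of its 16281 genes. They were the same 8 members as in the limma fit, with 0 in the opposite direction. In the authors' deposited table Slc25a44 had a log2 ratio of 3.04 (adjusted p = 8.22e-10), Slc25a38 had 2.30 (9.98e-05) and Slc25a5 had -1.66 (0.00079).

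The number of members past the threshold rested on having all 4 libraries. Without dTAG-13 replicate 1, and likewise without dTAG-13 replicate 2, limma called 0 members and 0 of all genes. The median log2 fold change of the members was 0.62 without dTAG-13 replicate 1, against -0.02 over all genes. It was 0.49 without dTAG-13 replicate 2, against -0.06 over all genes. Without DMSO replicate 1, 4 members were higher and 1 lower, against 2.25% and 4.84% of all genes. Without DMSO replicate 2, 1 was higher and 1 lower, against 0.294% and 4.15% of all genes. Slc25a24 was the lower member in both cases, with 0 reads and so no spread in dTAG-13, and 96 and 2 reads in DMSO. Without DMSO replicate 1 its lone DMSO pool held 2 reads, and with all 4 libraries it did not pass. Thus neither Slc25a15 nor Slc25a5 kept its call when any library was left out. The signs of all 8 stayed the same in each of these fits.

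**Figure D5:**
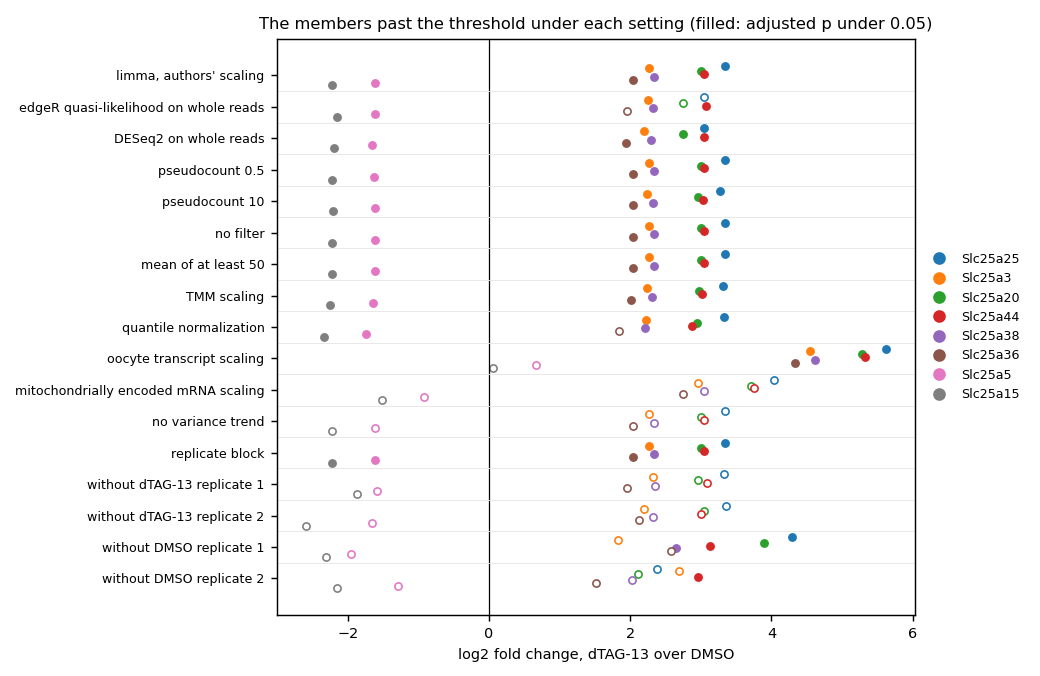
Log2 fold change, dTAG-13 over DMSO, of the 8 members past the threshold under each test, scaling, filter and left-out library, with filled points at an adjusted p under 0.05. The 6 higher members lie right of 0 throughout, and Slc25a15 and Slc25a5 lie left of 0 except with oocyte scaling, at 0.06 and 0.67.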

How the data were processed

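Polyadenylated RNA of 4 pools of 2-cell embryos was sequenced from unstranded SMART-seq v4 libraries, per the labels' protocols. The submitters' processing notes name bcl2fastq, Picard, HTSeq, DESeq and the build mm10; the aligner was not given in the sources used here, nor were versions or an annotation. As signal, the authors deposited gene counts after division by a library size factor. Dividing by the step of each column gave whole reads for 100% of values (tolerance 1e-04 reads). The authors' deposited table gives log2 ratios, p-values and adjusted p-values.

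The comparison used limma 3.58.1 (R 4.3.3, lmFit and eBayes with a variance trend, two-sided) on log2(value + 1), for genes with a mean of at least 10, with Benjamini-Hochberg adjustment over 15978 genes; fold changes on this scale are uncertain for genes near 0 reads. edgeR 4.0.16 and DESeq2 1.42.0 were run on the recovered reads, and the fits were tested on simulated data. Exon lengths, positions and overlaps came from GENCODE M21 (GRCm38, the same assembly as mm10), in which all 42 members were found, 31 with the file's gene version; promoter windows came from RefSeq, and 33 members had one. 1 member counted in all totals is not reported here by name or drawn. Floors cover counting error only. Members past the threshold, the member of highest mean in each role list and up to 3 genes of smallest p in each related list were named with statistics. The members, lists and tests were chosen with earlier results of these data known.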

Additional observations from a re-analysis of the deposited data

How the results depend on the processing

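The counts of 6 higher and 2 lower members held with pseudocounts of 0.5 and 10, no filter, a mean of at least 50 and TMM factors. Over those settings 6.49% to 17.2% of all genes were higher and 7.18% to 16.8% lower. These shares were lowest with no filter (42 members tested) and highest with a mean of at least 50 (31 members tested). Higher members came to 3 by edgeR, and lower members to 4 by DESeq2. Counts were 20 higher and 0 lower with oocyte scaling, and 0 and 0 both with scaling on mitochondrially encoded mRNAs and without a variance trend. In the last, 7 members were higher and 2 lower by unadjusted p, against 2349 and 2935 of all 15978 genes. Leaving out a library gave 0 to 4 higher and 0 to 1 lower members. The median log2 fold change was 2.64 with oocyte scaling, 1.07 with scaling on mitochondrially encoded mRNAs and 0.0028 to 0.62 with a library left out, against 0.36. With oocyte scaling the sign turned for Slc25a5 (0.67) and Slc25a15 (0.060). The cause was not tested.

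Same-numbered libraries did not deviate together (correlation -0.014 over 15978 genes), so the numbers were not taken to pair the pools. With the replicate block there were again 6 higher and 2 lower members, against 11.6% and 11.5% of all genes. The members' median was then 0.36.

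Members near the floors of 1.87 to 4.87 scaled reads were below what this depth resolves. The left-out fits assume that a lone pool varies like the other group.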
